A study of Mus musculus with 4 samples.

Results

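LSK cells lack mature lineage markers and carry c-Kit and Sca-1 on their surface, and among them are the blood stem cells and multipotent progenitors of mouse bone marrow. For these cells 2 of the 4 arrays of the series, WT LSK and Smo-deficient LSK, were compared. Each difference is the log2 intensity of the second minus that of the first. Both genotypes carried Smo flox/flox. Cells labelled WT were Mx1Cre- and those labelled Smo-deficient were Mx1Cre+, a Cre recombinase under the interferon-responsive Mx1 promoter, which acts in many blood and non-blood cells of the mouse. Smo loss in LSK cells, Smo loss elsewhere and Cre itself cannot be told apart in these arrays. Mice of both genotypes received 3 intraperitoneal doses of polyI:C, an interferon inducer, at 20 ug/g, and were killed 6 weeks after treatment. Marrow of 4 mice per genotype, of both sexes, was pooled before the sort, so each array stands for 1 pool. The strain label reads C57BL/6x129 for WT LSK and C57BL/6x130 for Smo-deficient LSK, and the labels give no age. The 2 arrays of Sca-1-negative myeloid progenitors (MP), labelled C57BL/6x131 (WT) and C57BL/6x132 (Smo-deficient), came from the same pools of mice and are given only as context. The last number of the strain label rises in the order of the samples, even between arrays of the same pool. The labels are printed as given and cannot stand for 4 different crosses. The study asked whether adult blood stem cells need hedgehog signalling.

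Smoothened, the product of Smo, is the membrane protein that passes on the hedgehog signal. Without ligand the receptor Patched holds it inactive, and with ligand it acts at the primary cilium and turns the Gli factors into activators, which raise Gli1 and Ptch1 themselves in many tissues. LSK cells are a mixed population, in which some cells already transcribe low levels of lymphoid, granulocyte and monocyte, or erythroid and megakaryocyte genes before they commit to a lineage. In such a bulk sample fewer cells of a kind and less RNA per cell cannot be told apart.

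With 1 array of 1 pool per genotype there is no replicate error, no difference was tested, and every value below is a size. The number of arrays sets the precision. Levels are log2 intensities, and where a pair of values follows, the WT array comes first. The WT LSK and Smo-deficient LSK arrays correlated with a Pearson's r of 0.994 across probe sets, which are not independent replicates. A gene stands for the probe set of highest mean level, and a gene is past the filter when that mean is above the 50th percentile of all probe sets, a log2 intensity of 7.23. The 3' minus 5' signal of the Gapdh control probe sets was 1.57 in WT LSK against 1.78 in Smo-deficient LSK, with 1.59 and 1.60 in MP, and its part in the differences was not tested. For Actb it was 1.55 in WT LSK against 1.53 in Smo-deficient LSK. Of the 7 genes fixed to check the label, 6 were measured, and all 6 were above the filter level on both LSK arrays. All but Procr were above it in WT MP too, so this level does not tell LSK from MP. In WT, LSK minus MP was 3.56 for Procr, 3.26 for Mecom and 2.64 for Hlf. It was 1.26 for Flt3, 1.16 for Cd34 and 0.19 for Kit. The same 6 genes were higher in LSK than in MP in the Smo-deficient pool as well. Kit, a gate gene, was at 12.51 in WT LSK against 12.65 in Smo-deficient LSK. Sca-1 (Ly6a) was not analysed here.

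The targeted gene was far lower in the Smo-deficient pool. Probe set 1427048_at, which represents Smo, stood at 10.02 in WT LSK against 6.96 in Smo-deficient LSK, 8.30-fold lower, beside 9.72 and 7.94 in MP. A second probe set, 1427049_s_at, had a log2 difference of -4.68 in LSK. The values in Smo-deficient LSK lay below the filter level, where the size of a fold depends on the background. The position of either probe set relative to the floxed exons was not examined, so they show less Smo signal and not how much of the gene was deleted.

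Most genes had nearly the same level in both LSK arrays, and those that stood apart were more often higher than lower in Smo-deficient LSK. Of 11904 genes past the filter, 74.4% differed by less than 0.25 on the log2 scale and 93.9% by less than 0.5. The median difference was -0.02, and the 5th and 95th percentiles were -0.34 and 0.48. At least 2-fold, 82 genes were higher (0.689% of those past the filter) and 31 were lower (0.26%). The preference for higher values was also present at 1.5-fold, with 374 higher and 110 lower, but at 3-fold 6 were higher and 7 lower. In MP the 2-fold numbers were 32 higher (0.269%) and 35 lower (0.294%). The spread of the difference between the LSK arrays, given as the scaled median absolute deviation over genes, was 0.21, and within bins of like mean level it ranged from 0.12 to 0.24. That spread describes these arrays and is no replicate error.

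**Figure D1:**
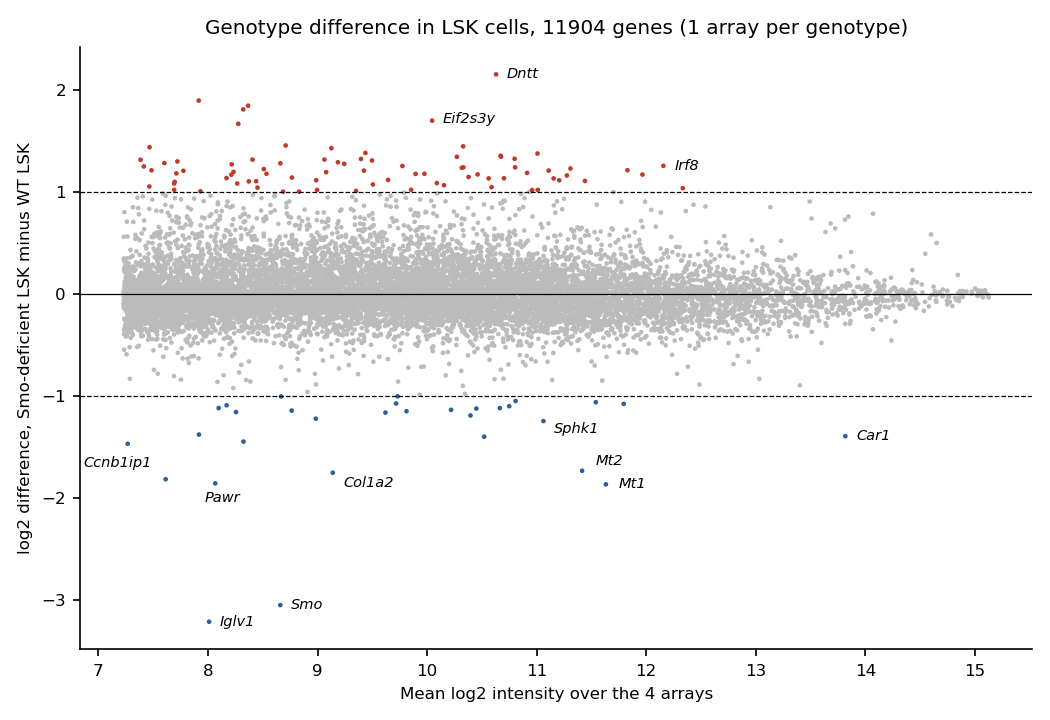
Each point is 1 of 11904 genes past the filter, with its mean log2 intensity over the 4 arrays on the horizontal axis and the log2 difference of Smo-deficient LSK minus WT LSK (1 array each) on the vertical axis. Red marks the 82 genes at least 2-fold higher, blue the 31 at least 2-fold lower and dashed lines the 2-fold threshold; Smo and Iglv1 lie farthest below 0 and Dntt farthest above.

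The 20 genes with the highest differences included genes known from lymphoid, B and myeloid cells, and 5 of them (Dntt, Satb1, Fcrla, Pou2af1 and Ly86) are on the lymphoid priming, early B or granulocyte and monocyte progenitor lists. Dntt, which encodes terminal deoxynucleotidyl transferase and adds nucleotides at antigen receptor joints, was at 10.87 in WT LSK against 13.02 in Smo-deficient LSK, 4.45-fold higher. Its MP levels were 8.73 and 9.90, so the Smo-deficient array was the higher one in both populations, and another of its probe sets differed by 2.29 in LSK. Fcrla, an Fc receptor-like protein of B cells, differed by 1.84, Pou2af1, a coactivator of octamer-dependent B cell transcription, by 1.81, and Id2, an inhibitor of E protein factors, by 1.43. Among the myeloid genes were Olfm4 (1.38), a neutrophil granule protein, Fpr2 (1.32), a formyl peptide receptor, Ly86 (1.35), the partner of the receptor RP105, and the C-type lectin gene Clec4a2 (1.32), whose other probe set past the filter differed by 0.02. The rest were Nrp1 (1.45), a co-receptor for semaphorins and VEGF, Dhrs3 (1.45), a retinaldehyde reductase, Trp53inp1 (1.38), Satb1 (1.34), Itgb2l (1.32), Ifitm6 (1.35), Mtus1 (1.32), AA467197 (1.31), Mir1931 and 3 genes of the Y chromosome. The other Nrp1 probe set past the filter differed by 0.53. Itgb2l had 2 dimmer probe sets that differed by -0.14 and -0.36, against its own direction.

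Mir1931 is a microRNA gene, at 7.78 in WT LSK against 9.68 in Smo-deficient LSK, and at 6.48 and 7.71 in MP. The platform annotation assigns 1 probe set to it, and such an array reads labelled copies of longer RNAs and not the mature microRNA. Its RefSeq entry lies on chr10:93162785-93162903, plus strand (GRCm38.p6), and the mature sequence is given to identify the gene, with the seed (bases 2 to 8) in capitals.
mmu-miR-1931: aUGCAAGGgcuggugcgauggc

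**Figure D2:**
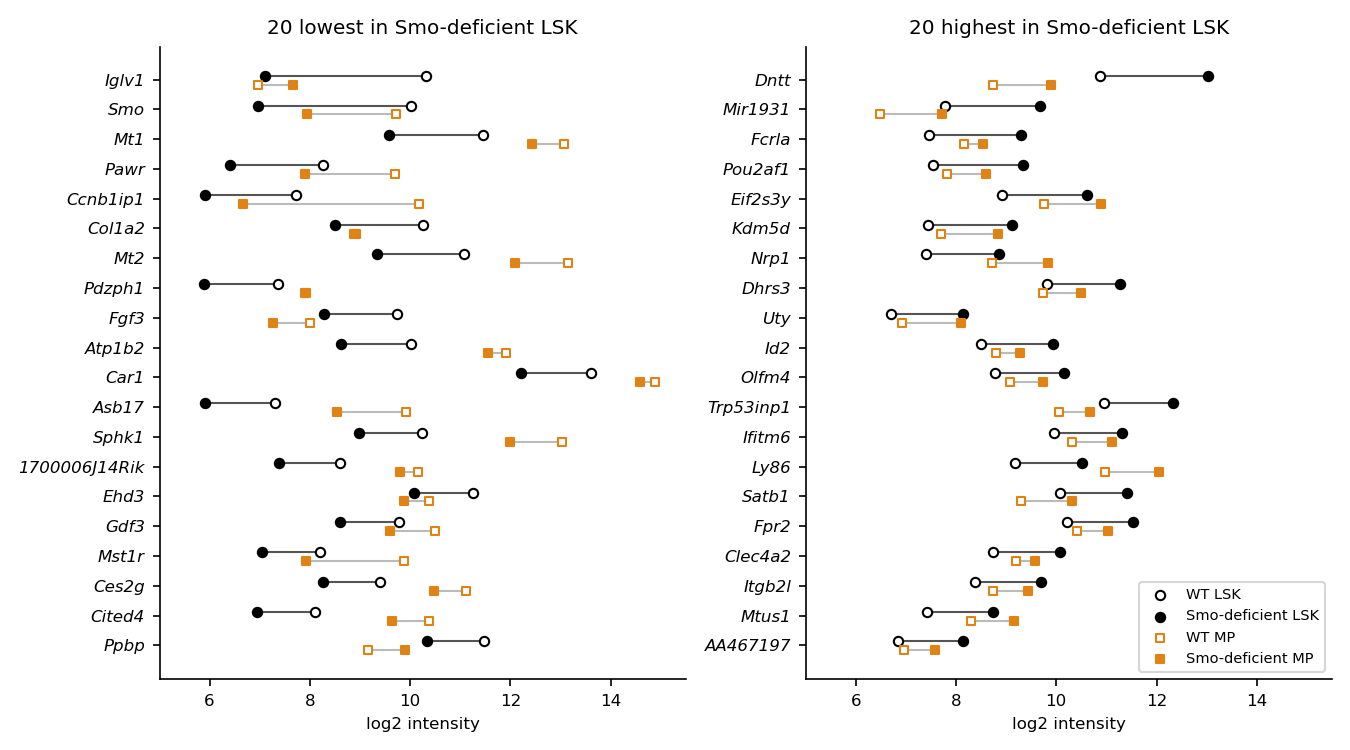
log2 intensity of the 20 genes with the lowest (left) and the 20 with the highest (right) difference in LSK, with circles for the LSK arrays and squares for the MP arrays, open for WT and filled for Smo-deficient; each symbol is 1 array. The filled squares lie on the same side as the filled circles for all genes on the right, and on the left for all but Iglv1 and Ppbp.

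Lymphoid priming genes were higher in Smo-deficient LSK. This list and all lists below were chosen with earlier results of these data known. Their counts beside the shares over all genes are thus descriptions and no test of enrichment. Of 16 measured genes on this list 15 were higher, with a median difference of 0.81, beside 43.2% higher and a median of -0.03 over all 18193 measured genes. The same 43.2% is the share to set beside the direction counts in LSK of every list below. Of the 13 past the filter, 5 were at least 2-fold higher and 0 lower, beside the 0.689% given above for all genes. Flt3, the receptor tyrosine kinase of lymphoid-primed progenitors, was at 11.20 in WT LSK against 12.41 in Smo-deficient LSK. Il7r, the interleukin 7 receptor, was at 7.27 and 8.48, close to the filter level in WT. The chromatin organizer Satb1 was at 10.07 and 11.41, and its 2 other probe sets past the filter differed by 1.42 and 1.52. Ltb, which encodes lymphotoxin beta, differed by 1.14, and Notch1 by 0.89, though another Notch1 probe set differed by 0.14. The exception was the E protein gene Tcf3 at -0.16, and Ikzf1, which encodes Ikaros, stood at 0.22. In MP the list had a median of 0.54, with 14 of 16 genes higher.

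Early B-lineage genes were higher too. Of 15 measured genes 14 were higher, beside 43.2% of all measured genes, with a median of 0.60 in LSK and 0.30 in MP. At least 2-fold higher were 4 of the 14 past the filter, beside 0.689% of all genes. Besides Fcrla and Pou2af1 these were Spib (1.28), an ETS family factor, and Blnk (1.18), the adaptor of the B cell receptor. Blnk rested at 7.26 in WT LSK, 8.44 in Smo-deficient LSK and 7.57 in both MP arrays, so the other 3 arrays lay together and below the Smo-deficient LSK array. Ms4a1, which encodes CD20, differed by 0.86. Pax5, the B cell commitment factor, differed by 0.07, while Ebf1, at 1.51, was below the filter and its size is uncertain. The T and NK cell list had a median of 0.10, and 0 of its 6 genes past the filter were 2-fold apart, near the 0.949% of all genes.

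Several immunoglobulin probe sets were much lower in Smo-deficient LSK, and those of Ighm went in opposite directions. Iglv1, an immunoglobulin lambda variable segment, was at 10.32 in WT LSK against 7.10 in Smo-deficient LSK, with 6.96 and 7.66 for the MP pair, so that WT LSK stood alone as the high array. Of the 8 Ighm probe sets past the filter, 1425324_x_at (-4.41), 1425247_a_at (-3.20), 1427756_x_at (-2.81) and 1427870_x_at (-1.97) were lower in Smo-deficient LSK. On the other hand 1427329_a_at (0.55), 1425385_a_at (0.17) and 1427351_s_at (0.10) were higher, and 1452535_at differed by -0.16. Of the 3 Igha probe sets, the one with the largest difference was at 12.84 in WT LSK against 11.84 in Smo-deficient LSK, the others differed by -0.61 and -0.58, and in MP all were higher by 0.28 to 0.48. Of 7 genes of plasma cells and B cells, chosen after these values were seen, Jchain, the joining chain of secreted antibodies, differed by 0.04, Sdc1 by 0.11 (0.43 and 0.99 on other probe sets), Xbp1 by 0.20, and Mzb1 and Cd79a by 0.60 each. Tnfrsf17 (-0.26) and Prdm1 (-0.06) were below the filter. Which sequences these probe sets read was not examined.

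The list of granulocyte and monocyte progenitor genes was also shifted upward in both populations. Of its members, 17 of 18 genes were higher in LSK with a median of 0.61, and 18 of 18 in MP with a median of 0.70. All 18 were past the filter, and 5 were at least 2-fold higher in LSK, beside 0.689% of all genes. Csf1r, the receptor for macrophage colony-stimulating factor, was at 10.66 in WT LSK against 11.87 in Smo-deficient LSK, with 11.85 and 12.94 for the MP pair. The Smo-deficient LSK array thus reached the level of WT MP for this gene, but its 2 other probe sets past the filter differed by 0.49 and 0.81. Irf8, a factor for monocyte and dendritic cell fate, differed by 1.26, the low-affinity IgG receptor Fcgr3 by 1.27, and the repressor Gfi1, which acts in granulocyte fate, by 1.18. The other Irf8 probe set differed by 0.80. The master factors of the myeloid lineage stood lower in the order, with Spi1 (PU.1) at 0.37 and Cebpa at 0.42. Myeloperoxidase (Mpo) differed by 0.18 and Klf4 by -0.14.

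Genes of mature neutrophils were higher in the same array. All 12 measured neutrophil markers were higher in Smo-deficient LSK, from 0.30 (Itgam) to 1.25 (Mmp8), with a median of 0.77, and 3 of the 11 past the filter were at least 2-fold higher, beside 0.689% of all genes. Mmp8, the neutrophil collagenase, was at 9.19 in WT LSK against 10.44 in Smo-deficient LSK. Mmp9, a gelatinase of the late granules, was at 10.06 and 11.19, and the surface protein gene Cd177 at 10.28 and 11.46. Secondary granule genes followed with smaller differences, among them Lcn2 (0.90), Ltf (0.85) and Camp (0.79). In MP all 12 were higher as well, with a median of 0.24. The summed intensity of the list was 95125 in WT LSK against 154660 in Smo-deficient LSK, with 116180 and 132730 for the MP pair, so Smo-deficient LSK was the highest array. Mature neutrophils should be lost at the lineage gate, and the part of such cells in the granulocyte and monocyte differences was not tested.

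Macrophage markers were higher in Smo-deficient LSK and had no shared direction in MP. Of 14 measured genes 11 were higher in Smo-deficient LSK, with a median of 0.63, while 7 of 14 were higher in MP. The highest was Csf1r, which is on the progenitor list as well. The adhesion molecule gene Vcam1, also a marker of marrow macrophages, was at 9.30 in WT LSK against 10.16 in Smo-deficient LSK, with 9.81 and 9.61 for the MP pair. Its other probe sets past the filter differed by 0.02 and 0.31 in LSK. The complement gene C1qb differed by 0.78, with 0.83 on another probe set, the haptoglobin-hemoglobin receptor gene Cd163 by 0.70, Mrc1 by 0.67 and Adgre1 by 0.67. Marco, Axl and Mertk were below the filter. The summed intensity of the list was 5317 in WT LSK against 9127 in Smo-deficient LSK, against 11001 and 13788 in MP, and its part in the other differences was not tested. Csf1r, at 10.66 and 11.87 in LSK and at 11.85 and 12.94 in MP, made up most of the rise of this sum in LSK. In MP Csf1r rose by more than the sum did, so the other members together were lower in Smo-deficient MP.

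Markers of further cell types had smaller medians. Dendritic cell markers had a median of 0.20 in LSK, with summed intensities of 5801 and 9278. Of the 11 genes 6 were past the filter, and 1 of these, Flt3, was 2-fold higher, beside 0.689% of all genes. Flt3, at 11.20 in WT LSK against 12.41 in Smo-deficient LSK, is also on the lymphoid priming list and made up most of the rise of the sum. Eosinophil markers had a median of 0.26 over 6 genes and mast cell and basophil markers one of 0.05 over 11, and Hdc, which encodes histidine decarboxylase, differed by 0.94 on its brighter and 0.33 on its dimmer probe set. For stroma and endothelium the median was -0.12 over 14 genes, 5 of which lay below the filter level on all arrays, and 0.84, the value of Pdgfrb, past the 75th percentile. Genes of MHC class II presentation, which dendritic cells, macrophages and B cells share, were higher in 9 of 10 cases with a median of 0.36 in LSK and 0.26 in MP. H2-Ob, a subunit of the H2-O modulator of peptide loading, was at 9.81 in WT LSK against 11.02 in Smo-deficient LSK, and at 7.90 and 8.96 in MP. The protease gene Ctss differed by 0.90 and H2-Aa by 0.65.

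Most erythroid genes were lower in Smo-deficient LSK, while the markers of mature erythroid cells were higher. Of 18 measured erythroid genes 12 were lower and 6 higher, from -1.40 to 0.80. Over all measured genes 43.2% were higher, so this count by direction alone is not far from that of all genes. The median was -0.38 in LSK and -0.51 in MP, and 3 of its 17 genes past the filter were at least 2-fold lower, beside the 0.26% over all genes, with 0 higher. The gene of carbonic anhydrase 1 (Car1) was at 13.60 in WT LSK against 12.21 in Smo-deficient LSK, and at 14.88 and 14.58 in MP. Sphk1, which encodes sphingosine kinase 1, was at 10.24 and 8.99 in LSK and at 13.03 and 11.99 in MP, and Trib2, which encodes a Tribbles pseudokinase, differed by -1.12. The other probe sets of Sphk1 and Trib2 were below the filter. Under the median over all probe sets of a gene, Sphk1 differed by -0.48 and Trib2 by -0.18. Gata1 (-0.79) and Klf1 (-0.69), the transcription factors of the lineage, and the erythropoietin receptor gene Epor (-0.76) were lower as well. All 7 measured mature erythroid markers were higher in LSK, with a median of 0.53, and 3 of them (Alas2, Slc4a1 and Hba-a1) are on the erythroid list as well. Slc4a1, the anion exchanger of the red cell membrane, was at 11.80 in WT LSK against 12.60 in Smo-deficient LSK, with 0.83 on another probe set, and Epb42 differed by 0.81. Alas2, which starts heme synthesis in erythroid cells, differed by 0.53. In MP the mature markers had a median of 0.13.

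Platelet and megakaryocyte genes were lower in Smo-deficient LSK, with no shared direction in MP. Of 18 measured genes 17 were lower in LSK, with a median of -0.44, and 9 of 18 were higher in MP, with a median of 0.00. At least 2-fold, 3 of the 17 past the filter were lower and 0 higher, beside 0.26% lower and 0.689% higher over all genes. Vwf, which encodes von Willebrand factor and is also active in platelet-biased stem cells, was at 11.78 in WT LSK against 10.66 in Smo-deficient LSK, with 9.85 and 9.51 for the MP pair. For the platelet chemokine gene Ppbp the 4 values were 11.48, 10.34, 9.17 and 9.90 in the same order, so that the direction in MP was opposite. Gp1bb, a subunit of the von Willebrand factor receptor, differed by -1.01, but by -0.04 on another probe set. Gp5 (-0.84), Clec1b (-0.81), Pf4 (-0.67) and Itga2b (-0.57) followed, while the factor Nfe2 differed by 0.10. The summed intensity of the list was 68573 in WT LSK against 52276 in Smo-deficient LSK.

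**Figure D3:**
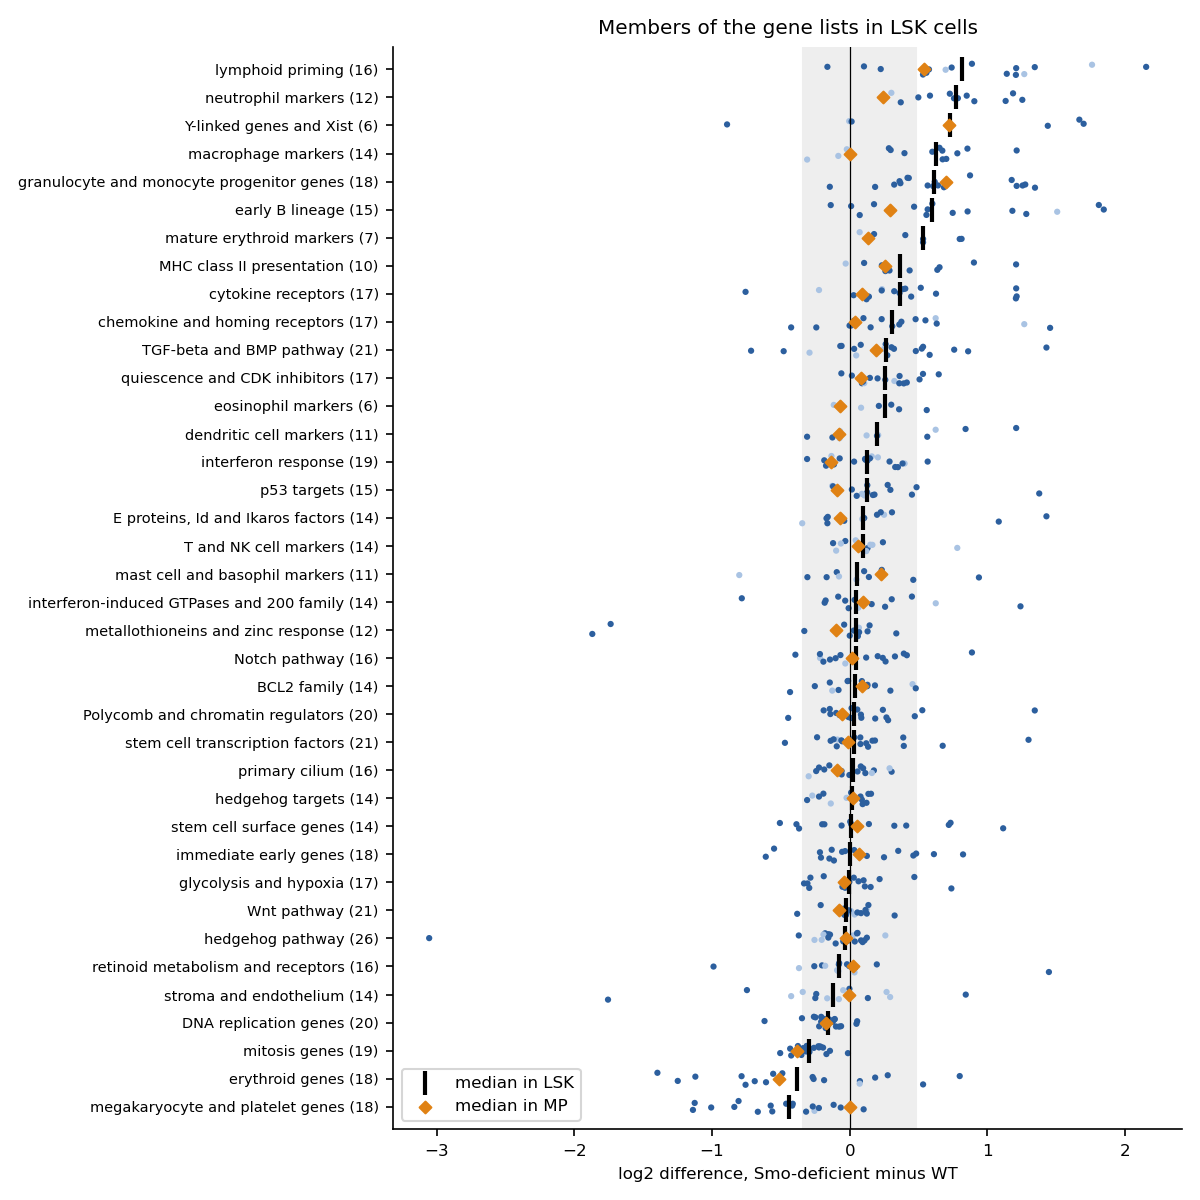
Differences of the measured members of 38 gene lists in LSK (points, Smo-deficient minus WT, log2; pale points are genes below the filter), with the median in LSK as a black bar and that in MP as an orange diamond; the grey band runs from the 5th to the 95th percentile of all genes past the filter, and the number of measured members stands in brackets. The lymphoid priming median lies at 0.81 and the megakaryocyte and platelet median at -0.44, while the hedgehog, Wnt, Notch and glycolysis medians lie within 0.1 of 0.

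The lists of stem cell identity had medians close to 0, but some members were higher. The list of stem cell transcription factors had a median of 0.03 over 21 genes and that of stem cell surface genes one of 0.01 over 14. At 1.5-fold, 2 of the 20 factors past the filter and 3 of the 14 surface genes were higher, and 0 were lower. The shares over all genes were 3.14% higher and 0.924% lower. Each list had 1 gene at least 2-fold higher, beside 0.689% of all genes. Mecom, a self-renewal factor, was at 10.84 in WT LSK against 10.92 in Smo-deficient LSK. Hlf, a leucine zipper factor of stem cells, was at 11.34 and 12.02, with 0.46 on another probe set. Mn1 was at 7.71 in WT LSK against 9.01 in Smo-deficient LSK, with 7.09 and 7.08 for the MP pair, so it was 2.46-fold higher between the LSK arrays and level between the MP arrays. Procr, the endothelial protein C receptor gene that marks stem cells, was at 10.32 and 11.44, whereas Slamf1, another marker, differed by -0.51. The surface protein genes Alcam and Robo4 differed by 0.73 and 0.72, with 1.06 on another Alcam probe set past the filter.

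Mitosis genes and most DNA replication genes were slightly lower. All 19 measured mitosis genes were lower in Smo-deficient LSK, from -0.51 (Plk1, a mitotic kinase) to -0.01 (Nusap1), with a median of -0.29. The same 19 were lower in MP with a median of -0.38. At 1.5-fold 0 were called in LSK, near the shares over all genes of 3.14% higher and 0.924% lower. Of 20 DNA replication genes 18 were lower in LSK, with a median of -0.16 and Ccne1, which encodes cyclin E1, lowest at -0.62. Genes of quiescence and CDK inhibitors were higher in 16 of 17 cases with a median of 0.26. Ccng2, which encodes cyclin G2, differed by 0.65, though by 0.22 on another probe set, and Cdkn1b, which encodes p27, differed by 0.53.

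Within the hedgehog pathway Smo, the targeted gene, alone was 2-fold apart, 1 of the 18 members past the filter, beside 0.949% of all genes. Its 25 remaining measured members ran from -0.37 (Evc2, a ciliary partner of Smoothened) to 0.26 (Hhat, which acylates the ligands), and the list median, Smo included, was -0.04. By role, the ligand genes Shh, Ihh and Dhh differed by 0.11, -0.05 and -0.04. Among receptors and co-receptors Ptch1 was at 0.09, Boc at -0.10, Cdon at -0.03 and Gas1 at -0.18. Of the transducers and effectors Sufu was at 0.05, Kif7 at 0.06, Gli1 at 0.02, Gli2 at -0.20 and Gli3 at -0.26. Gli1, Gli2, Gli3, Ihh, Dhh, Hhip, Gpr161 and Hhat were below the filter, where small differences are not detectable. For Ptch1 the levels were 10.12 in WT LSK against 10.21 in Smo-deficient LSK, and its second probe set past the filter differed by -0.24. The 14 measured hedgehog targets had a median of 0.02, from -0.31 (Foxf1) to 0.15 (Sfrp1), and the 16 measured genes of the primary cilium one of 0.03, from -0.30 (Bbs7) to 0.30 (Ift122).

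Among other signalling lists, those of TGF-beta and BMP genes, cytokine receptors and chemokine receptors had positive medians. Of 21 TGF-beta and BMP genes 16 were higher, with a median of 0.26. The inhibitory Smad7 was at 9.95 in WT LSK against 10.81 in Smo-deficient LSK, with 1.24 on another probe set. The ligand gene Tgfb1 differed by -0.72 and the receptor gene Acvr1 by 0.76, but their other probe sets past the filter differed by 0.11 and by -0.05 to -0.02. Cytokine receptor genes had a median of 0.36 over 17 genes, with Flt3, Il7r and Csf1r at 1.21 each and Epor lowest at -0.76, and Kit differed by 0.14. Chemokine and homing receptors had a median of 0.31 over 17, E proteins, Id and Ikaros factors 0.10 over 14, and retinoid genes -0.08 over 16. Among the E proteins, Id and Ikaros factors only Id2 and Bcl6 (1.08), a transcriptional repressor, were 2-fold higher. They are 2 of the 11 past the filter, beside 0.689% of all genes. Each call rests on 1 probe set. The others, below the filter, differed by 0.10 for Bcl6 and by 0.31 and 0.19 for Id2. Bcl6 was at 7.17 in WT LSK, below the filter level. The medians were 0.04 for the Notch pathway, -0.03 for the Wnt pathway, 0.04 for the BCL2 family, 0.13 for p53 targets, 0.00 for immediate early genes, 0.00 for glycolysis and hypoxia, and 0.03 for Polycomb and chromatin regulators. The hypoxia- and stress-induced gene Ddit4 was at 10.62 in WT LSK against 11.09 in Smo-deficient LSK, and at 10.65 and 8.20 in MP.

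Interferon genes, the class that polyI:C induces, had medians close to 0 at the 6 weeks of sampling. The interferon response list had a median of 0.13 over 19 genes, from -0.31 (Bst2) to 0.57 (Oasl2), and 0 of the 15 past the filter reached 1.5-fold, near the shares over all genes of 3.14% higher and 0.924% lower. Interferon-induced GTPases together with the PYHIN family had a median of 0.05 over 14. Mndal, a PYHIN gene, was at 10.80 in WT LSK against 12.04 in Smo-deficient LSK, with 9.54 and 10.84 for the MP pair, with 1.27 on another probe set. For Ifi204 of the same family the LSK difference was -0.78 and the MP difference 0.53. The interferon-stimulated response element core, GAAA repeated after a gap of 2 bases on either strand, was present in the promoters (250 bases before to 50 after the start in RefSeq, GRCm38.p6) of 8 of 14 response genes and 8 of 11 of the others with an entry. It was present in 3.44% of all 32851 promoters of that table. This share is per promoter, whereas the list counts are per gene, and some of those genes have 2 or 3 promoters. A match is a description of the sequence only.

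The neighbouring metallothionein genes Mt1 and Mt2 were both among the 20 lowest. Metallothioneins are small cysteine-rich proteins that bind zinc and copper, and the zinc-sensing factor MTF1 drives their transcription through metal response elements. Mt1 was at 11.45 in WT LSK against 9.58 in Smo-deficient LSK, with 13.07 and 12.43 for the MP pair. For Mt2 the values were 11.08, 9.34, 13.15 and 12.09. In both pools LSK lay below MP, and in both populations the Smo-deficient array lay below WT. A dimmer Mt1 probe set at 7.17 in WT LSK differed by -0.09. The 10 other measured genes of the zinc list ran from -0.33 (Nqo1, an oxidoreductase of the oxidative stress response) to 0.34 (Mtf1, though its other probe sets past the filter differed by -0.17 and 0.13). The zinc exporter gene Slc30a1, also an MTF1 target, differed by 0.14.

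Their promoters are printed to show matches to the core of this element, 5′ to 3′ on the plus strand of GRCm38.p6 as RefSeq places the starts. Whether any of these matches acts in the response to zinc was not examined. Capitals mark each match to the metal response element core, TGCACNC or TGCGCNC on either strand. Mt1 lies on chr8:94178839-94179138 and holds 3 matches, and Mt2 on chr8:94172368-94172667 and holds 4.
Mt1: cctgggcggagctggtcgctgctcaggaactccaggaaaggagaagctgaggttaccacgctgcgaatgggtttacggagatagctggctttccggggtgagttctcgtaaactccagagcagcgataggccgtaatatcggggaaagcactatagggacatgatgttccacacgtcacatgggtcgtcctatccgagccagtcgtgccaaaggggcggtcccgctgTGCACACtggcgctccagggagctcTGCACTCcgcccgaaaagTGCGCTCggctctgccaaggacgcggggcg
Mt2: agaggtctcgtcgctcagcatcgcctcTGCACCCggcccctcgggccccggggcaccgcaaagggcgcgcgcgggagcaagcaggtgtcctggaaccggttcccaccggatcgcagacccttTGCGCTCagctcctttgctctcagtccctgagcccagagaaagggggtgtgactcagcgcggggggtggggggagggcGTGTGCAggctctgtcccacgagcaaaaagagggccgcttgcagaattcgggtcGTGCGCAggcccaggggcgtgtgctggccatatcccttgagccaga

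Across the 32851 promoters of the same length 25.7% held at least 1 match and 1.97% held 3 or more. The neighbouring Mt3, which differed by 0.06 in LSK, and Mt4, which was below the filter, had 1 match each.

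The other genes among the 20 lowest had no common program by the lists used here. Pawr, a regulator of apoptosis, was at 8.26 in WT LSK against 6.40 in Smo-deficient LSK, and at 9.70 and 7.91 in MP. Ccnb1ip1, a ligase gene of meiotic crossing over, was at 7.72 and 5.90 in LSK and at 10.17 and 6.67 in MP. Both thus ended below the filter level in Smo-deficient LSK and were lower in both populations. Col1a2, a chain of type I collagen, was at 10.25 in WT LSK against 8.50 in Smo-deficient LSK but at 8.92 and 8.88 in MP, so WT LSK was the array that stood apart. Col1a1, the partner chain, was below the filter at -0.43, and the proteoglycan gene Dcn differed by -0.75. Pdgfrb, a receptor of stromal cells, differed by 0.84, with 0.41 on another probe set. Fgf3, a fibroblast growth factor gene, differed by -1.45, and its other probe sets past the filter by -1.26 and -0.88. Further genes were Pdzph1 (-1.47, from 7.36 in WT LSK), Asb17 (-1.38, from 7.29) and Mst1r (-1.16), a receptor tyrosine kinase gene. Ehd3 (-1.19) and Gdf3 (-1.17) had -0.47 and -0.70 on other probe sets, and Atp1b2 (-1.40) had -0.40. The others were Ces2g (-1.15), Cited4 (-1.15) and 1700006J14Rik (-1.23).

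Genes of the sex chromosomes differed between the pools, each of which held males and females. Eif2s3y was at 8.91 in WT LSK against 10.61 in Smo-deficient LSK, Kdm5d at 7.45 and 9.11, and Uty at 6.70 and 8.14. Xist, transcribed from the inactive X, was at 13.01 and 12.12, with -0.99 on another probe set. The MP arrays of the same mice had the same directions, with 1.14 for Eif2s3y and -0.47 for Xist. The sex makeup of the pools and the genotype cannot be told apart in these arrays. By chromosome (GRCm38.p6), 3 of the 4 genes of the Y past the filter were at least 2-fold apart. Among the autosomes, the share ran from 0.204% of 491 genes on chromosome 15 to 2.39% of 376 on chromosome 16. Over all genes 0.949% were 2-fold apart in either direction. Chromosome 6, which carries Smo, had 12 of 606 genes (1.98%), 7 higher and 5 lower with Smo among them.

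The genes that stood apart in LSK mostly had the same direction in MP. Of the 82 higher genes, 79 were higher in MP as well, with a median of 0.68 there against 1.19 in LSK, and 13 were at least 2-fold higher in both. Those 13 are 15.9% of the genes called in LSK and 40.6% of the 32 called in MP, beside 0.269% of all genes 2-fold higher in MP. The median MP difference over all genes past the filter was -0.05. How often all genes shared a direction in both populations was not counted. Of the 31 lower genes 29 were lower in MP, with a median of -0.69 against -1.17 in LSK. At least 2-fold, 9 were lower in both, 29.0% of the LSK genes and 25.7% of the 35 in MP, beside 0.294% of all genes 2-fold lower in MP. The genes were picked by their LSK values, so a smaller median in MP follows in part from the choice. Both populations came from the same 2 pools of mice, and their agreement is no replicate. For the 82 higher genes 6 had an MP difference within 0.25 of 0, Mn1 and Blnk among them, and for the 31 lower genes 5 had, Col1a2 and Pdzph1 among them.

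**Figure D4:**
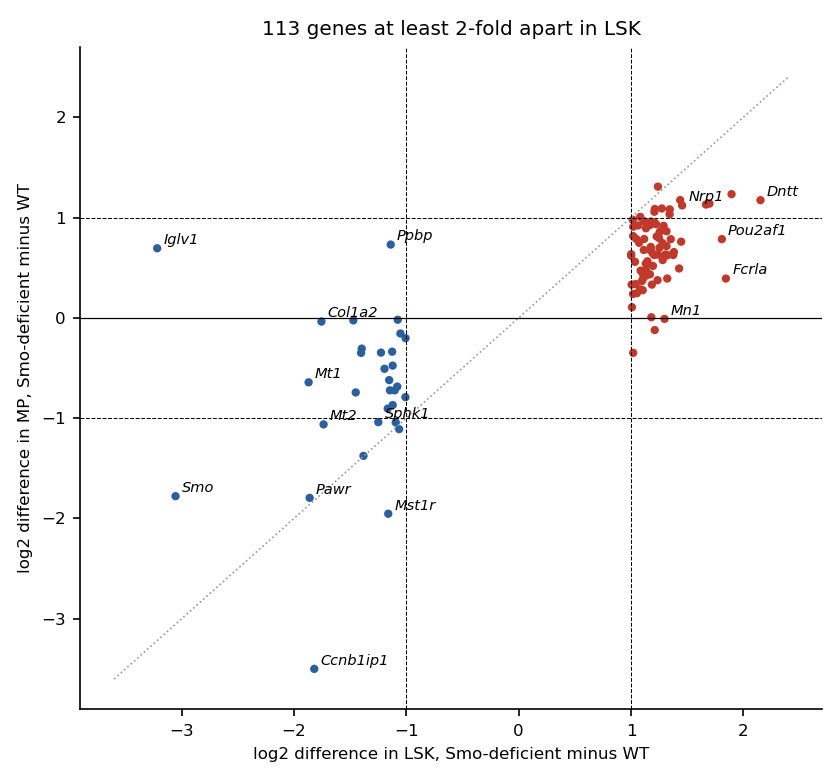
The 113 genes at least 2-fold apart in LSK, with the log2 difference in LSK (horizontal) and in MP (vertical), Smo-deficient minus WT, 1 array per group; red genes are higher and blue genes lower in Smo-deficient LSK, dashed lines mark 2-fold and the dotted line equal differences. Most points share the sign of both axes, and Iglv1 and Ppbp lie above 0 in MP while below -1 in LSK.

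Where a gene had further probe sets past the filter, they mostly shared its direction but not its size. Among the higher genes 20 had at least 1, for 18 all of them were higher, and for 7 at least 1 was also 2-fold. Among the lower genes 11 had at least 1, all were lower in all 11 cases, and in 3 cases at least 1 was 2-fold. One of the LSK arrays lay below the filter level for 7 of the 82 higher and 11 of the 31 lower genes, and the fold of those depends on the background.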

How the data were processed

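The authors deposited 1 table of array intensity values for 45101 probe sets on 4 Affymetrix arrays, and the submitters' processing notes name RMA, with the version not given in the sources used here; this method usually brings all arrays to 1 distribution, which can hide a shift common to most genes. Its usual output is log2, whereas these values span 12.3 to 44290.5 and were taken as linear. RNA, 20 ng per sample, was amplified in 2 rounds per the labels' protocols.

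Here log2 was taken without a pseudocount after 64 control probe sets were set aside. Genes were named from the platform annotation: 34945 probe sets had 1 gene, 932 several and 9160 none, and 34741 entrez identifiers matched RefSeq (GRCm38.p6). For each of 18193 genes the brightest of its single-gene probe sets, by mean, was used. With 1 array per group no test was run, and 2-fold differences were counted among 11904 genes (22518 probe sets) above the 50th percentile. The counting code was checked on simulated arrays with known folds. Of 591 symbols on 38 lists, 546 were measured. Named genes were the 20 highest and 20 lowest, the hedgehog list, and from each other list the 5 largest differences past the filter, and members with disagreeing probe sets. Further list members (such as Pax5, Spi1, Cebpa, Mpo, Camp, Pf4, Itga2b, Nusap1 and Col1a1) were named after their values were seen. The lists, the members and the naming rule were chosen with earlier results of these data known. Alternatives used quantile and cyclic loess normalization (limma 3.58.1, R 4.3.3), a pseudocount, other filters, folds and probe set rules.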

Additional observations from a re-analysis of the deposited data

Results flagged for a closer look

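For 2 genes named above the genotype difference had opposite signs in the populations, at least 2-fold in LSK and at least 1.5-fold in MP. For Iglv1 the LSK value was -3.22 and the MP value 0.69. For Ppbp they were -1.14 and 0.73. Each value compares 1 array with 1 array, and the difference between the populations was not tested.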

How the results depend on the processing

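No paired analysis was possible because each group has 1 array, so the 2 genotypes share 1 replicate number; LSK and MP of a genotype share mice. Quantile and cyclic loess normalization moved the median of all genes by -0.02 and 0.02 and none of 38 list medians or 219 named genes by as much as 0.21, the spread over all genes. The counts of genes at least 2-fold higher and lower, 82 and 31, became 374 and 110 at 1.5-fold and 6 and 7 at 3-fold, and for probe sets 134 and 51 became 689 and 199, then 9 and 14. With the filter at the 75th percentile they were 44 and 17 genes (62 and 24 probe sets), since fewer were counted. Without a filter they were 103 and 32 genes (221 and 60 probe sets). With the median over all probe sets of a gene, dim ones included, 56 genes were higher and 16 lower. The share of higher among called genes was 72.6%, and 46.2% at 3-fold. Under that median the difference of Itgb2l turned to -0.14, and 55 of 219 named genes moved by more than 0.21. Among them were Iglv1 (-0.49), Id2 (0.31), Fcrla (0.46), Sphk1 (-0.48) and Trib2 (-0.18). Among the 38 list medians 4 moved by more than that over members past the 75th percentile, the early B median to 0.21, macrophage to 0.85, stroma and endothelium from -0.12 to 0.84 and Y-linked genes and Xist to 0.40. That last one was 1.44 over members past the filter, and 0.29 under the median over all probe sets, where the TGF-beta and BMP median was 0.05. Dim signals limit the sizes for Smo, Pawr and Ccnb1ip1: with a pseudocount of 32 they were -2.77, -1.54 and -1.40.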
